A study of Mus musculus with 4 samples.

Results

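The complement genes described here in mouse skin number 9: C1qa, C1qb, C1qc, C1ra, C4b, C3 and Cfb, which encode components, and Serping1 and Cd55, which encode regulators. They were chosen by name, as genes whose symbol in the expression table equals one of these 9, and all 9 were found among its 17958 genes. The 4 libraries are RNA from tissue labelled as epidermal keratinocytes of untreated mice, 2 from IL-36Ra-cKO mice and 2 from IL-36Ra fl/fl mice. IL-36Ra is the secreted antagonist of the IL-36 receptor, and cKO denotes a conditional knockout. The genotype field records the fl/fl group, which has the floxed allele, as WT and the cKO group as a knockdown. Neither the Cre driver nor the age or sex of the mice is stated in the labels. They do not say either whether each library is a different mouse, so the p-values cover the spread between libraries, part or all of which may be technical.

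Complement is a cascade of serum proteins that marks surfaces for removal and lyses membranes. In the classical pathway the C1q complex, built from A, B and C chains, binds immune complexes and carries the proteases C1r and C1s, which cleave C4 and C2. In the alternative pathway factor B pairs with C3b and is cleaved by factor D. Both pathways end in cleavage of C3, the central component, and can go on to the membrane attack complex that C6 and C7 help to build. C1 inhibitor (Serping1) blocks C1r and C1s, whereas decay-accelerating factor (Cd55) dismantles the C3 convertases on the cell's own membrane. Much serum complement comes from liver, but macrophages are a main source of C1q, and fibroblasts, adipocytes and keratinocytes can make other components locally.

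Promoter sequences, the 250 bases before the annotated start, were at hand for 5 of the 9 genes (C1qb, C1qc, C1ra, C3 and Cd55) in RefSeq for build GRCm38.p6, an older build than the GRCm39 named in the submitters' processing notes. Those of C1qb, C1qc and C3 are shown because the C1q genes had similar profiles over the libraries and C3 differed most between the fl/fl libraries. Capitals mark matches, on either strand, to GAGGAA (the core read by the myeloid factor PU.1), to TTNNGNAA (a loose C/EBP pattern), or to the NF-kB consensus. The C1qb promoter lies at chr4:136886201-136886450, that of C1qc at chr4:136892915-136893164 and that of C3 at chr17:57228137-57228386, all on the minus strand.
C1qb: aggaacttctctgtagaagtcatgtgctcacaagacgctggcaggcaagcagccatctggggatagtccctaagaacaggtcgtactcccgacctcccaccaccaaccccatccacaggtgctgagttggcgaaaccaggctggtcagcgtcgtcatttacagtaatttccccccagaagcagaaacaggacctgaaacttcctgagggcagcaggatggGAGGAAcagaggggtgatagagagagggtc
C1qc: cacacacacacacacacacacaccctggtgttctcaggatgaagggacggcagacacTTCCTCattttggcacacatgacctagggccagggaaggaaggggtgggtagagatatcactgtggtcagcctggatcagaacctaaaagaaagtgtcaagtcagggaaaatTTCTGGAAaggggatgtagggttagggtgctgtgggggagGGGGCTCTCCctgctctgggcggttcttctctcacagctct
C3: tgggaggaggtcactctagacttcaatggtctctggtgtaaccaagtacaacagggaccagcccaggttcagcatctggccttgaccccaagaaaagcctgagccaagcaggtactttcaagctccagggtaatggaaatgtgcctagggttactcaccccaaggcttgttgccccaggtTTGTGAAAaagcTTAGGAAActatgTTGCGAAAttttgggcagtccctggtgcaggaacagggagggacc
The C3 promoter holds TTNNGNAA at 3 places, from 70, 58 and 45 bases before the start, and the last of them reads as the pattern on both strands. At least 1 such match occurs in 36.8% of the 32851 mouse promoters searched and 3 or more in 2.61%. C1qb has GAGGAA from 30 bases before its start, and C1qc has it on the opposite strand from 193 bases before; 23.3% of promoters have it. The C1ra promoter, not shown, holds TTNNGNAA at 2 places on the opposite strand, and that of Cd55 held none of the motifs searched. The C1qc promoter also holds 1 TTNNGNAA, and 1 NF-kB match that 7.25% of promoters share. TTCNNNGAA, a STAT pattern present in 7.02% of promoters, and an interferon response core (GAAA, then 2 bases of any kind, then GAAA) present in 2.98%, were in none of the 5 windows. A match is a run of letters and not a shown binding site.

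Total estimated counts were 14723409 and 14622791 in the cKO libraries and 15918854 and 16490602 in the fl/fl libraries, and the 9 genes together took 0.0193% to 0.0473% of them. The targeted gene, listed under its older symbol Il1f5, had 3258 and 2508 counts in the cKO libraries and 3743 and 3489 in the fl/fl libraries, and its fitted log2 fold change was -0.24 ± 0.24 (SE, edgeR adjusted p = 0.509), with a 95% interval of the fold from 0.545 to 1.31. A loss of its transcript was thus not detected, and which exons the reads fell on cannot be seen in a value per gene. Keratinocyte markers (Krt5, Krt14, Krt1, Krt10, Trp63 and Dsg1a, 6 of 6 present) summed to 23025 to 23214 TPM (transcript share scaled for length and library) in the cKO and 21709 to 24798 in the fl/fl libraries. One library stood apart: hair follicle markers summed to 2008 and 1.07 TPM in the cKO libraries and to 4456 and 5867 TPM in the fl/fl libraries, with Krt71, Krt33a, Krt35 and Shh at 0 in cKO replicate 2, and the values without that library are given at the end of the paragraph on counts of calls. The 4 Y-linked genes examined summed to 124 and 154 TPM in the cKO libraries and to 0.98 and 1.23 TPM in the fl/fl libraries, so an apparent sex difference went with genotype and the 2 cannot be told apart. In bulk tissue, fewer cells of a type and less RNA per cell cannot be told apart either.

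No difference between the genotypes passed the test for any of the 9 genes. The libraries differed more within the fl/fl group: in fl/fl replicate 1, 8 of the 9 genes stood 2.03 to 3.95 times lower than in fl/fl replicate 2 in CPM (counts scaled by library). The cKO libraries lay near the higher fl/fl library for C3, C4b and Serping1 and nearer the lower one for Cfb and C1qc. Only Cd55 had both cKO libraries above both fl/fl libraries in CPM, and on TPM its groups overlapped.

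**Figure D1:**
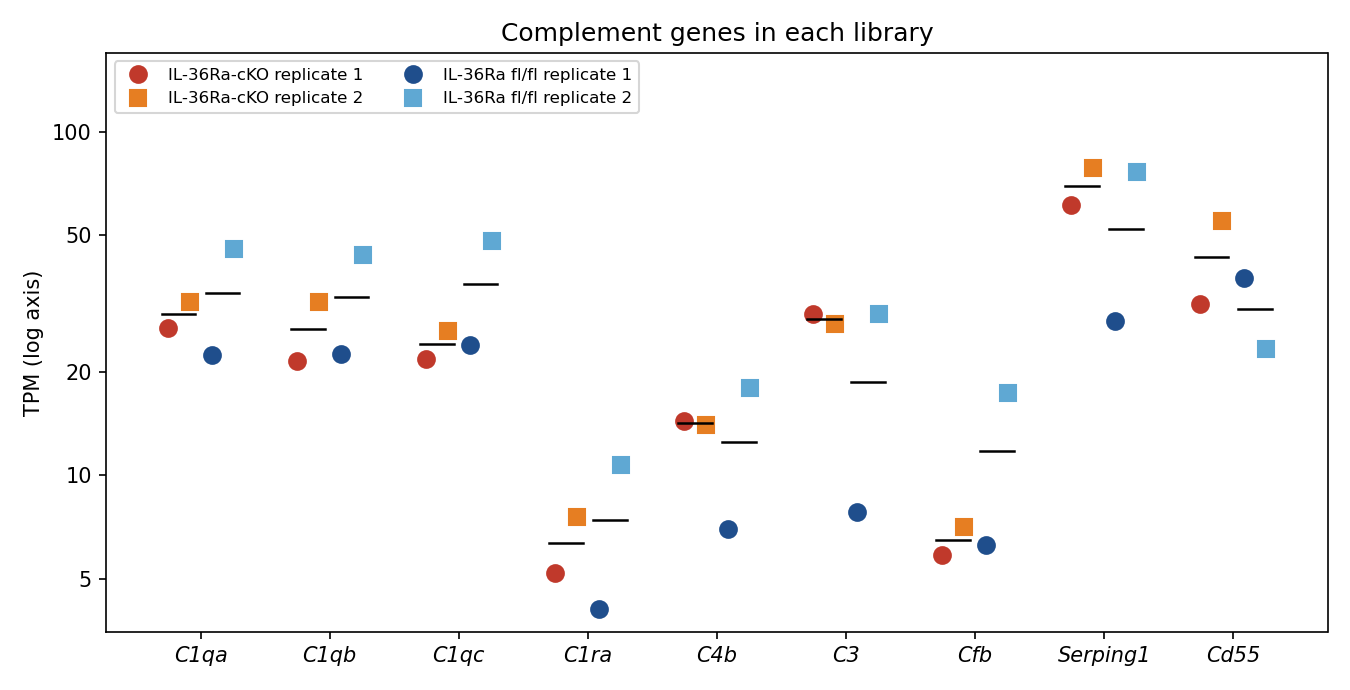
Level of each complement gene in TPM (log axis) in the 4 libraries, with the cKO libraries left of the fl/fl libraries and a bar at each group mean (n = 2). Within each gene the groups overlap, and C3 in fl/fl replicate 1 lies at 7.83 TPM against 27.6 to 29.6 TPM in the other 3 libraries.

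The C1q chains recognise antibody-coated and dying cells and were read at similar levels per transcript length. C1qa stood at 26.9 and 32.1 TPM in the cKO libraries and at 22.4 and 45.6 TPM in the fl/fl libraries. C1qb was at 21.5 and 31.9 TPM in cKO and at 22.5 and 43.8 TPM in fl/fl. C1qc was at 21.9 and 26.4 TPM in cKO and at 24.0 and 48.1 TPM in fl/fl. In each case fl/fl replicate 2 was the highest library and the cKO libraries lay close to or above fl/fl replicate 1, so the groups overlapped. The fitted log2 fold changes, cKO minus fl/fl here and throughout, were 0.01 ± 0.38 for C1qa, -0.10 ± 0.39 for C1qb and -0.36 ± 0.39 for C1qc (SE, n = 2 libraries per group, edgeR adjusted p = 0.986, 0.870 and 0.533). The 95% interval of the C1qa fold ran from 0.503 to 2.02, so a doubling could not be told from no change. The C1qa value turned to -0.43 when fl/fl replicate 1 was left out and was 0.63 when fl/fl replicate 2 was left out.

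The 3 chains form a single gene block on chromosome 4, with C1qc between C1qb and C1qa, and assemble in equal numbers. They kept close to equal shares of their summed TPM. C1qa made up 38.2% and 35.5% of it in the cKO libraries and 32.5% and 33.2% in the fl/fl libraries, while C1qc made up 31.2% and 29.2% in cKO and 34.8% and 35.0% in fl/fl. The shares of C1qa and C1qc did not overlap between the groups, whereas that of C1qb did (30.6% and 35.3% in cKO, 32.7% and 31.8% in fl/fl). Set against macrophage genes, the C1q sum was 7.49 and 7.55 times the TPM of Csf1r, the receptor for macrophage growth factor, in cKO and 10.4 and 13.5 times in fl/fl. Against Adgre1, which encodes the macrophage marker F4/80, it was 16.9 and 17.4 times in cKO and 15.7 and 19.9 times in fl/fl. Against Cd68, a lysosomal protein of macrophages, it was 5.20 and 8.05 times in cKO and 8.66 and 8.25 times in fl/fl. The ratios to Csf1r and Cd68 did not overlap between the groups, by a narrow margin for Cd68, and that to Adgre1 did. The direction depends on the marker chosen. Mrc1, another of the 10 macrophage and Langerhans markers read here, was at 4.34 and 7.34 TPM in cKO and 8.95 and 13.2 TPM in fl/fl. A ratio of the C1q sum to Mrc1 thus runs the other way, higher in both cKO libraries. The remaining markers of that list were not set against C1q. Over all pairs of genes above 0 TPM in every library, 64.9% of TPM ratios did not overlap between the groups, so such a separation is common here.

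C1ra encodes the protease that C1q activates first, and it was the least abundant of the 9 genes in the cKO mean and in the fl/fl mean. It stood at 5.20 and 7.55 TPM in the cKO libraries and at 4.08 and 10.7 TPM in the fl/fl libraries. The 2 fl/fl libraries enclosed both cKO libraries. Its log2 fold change was -0.05 ± 0.52 (SE, edgeR adjusted p = 0.948), and leaving out 1 library gave values between -0.61 (fl/fl replicate 1 out) and 0.83 (fl/fl replicate 2 out). C1s1, the next protease in the chain, was at 10.9 and 13.3 TPM in cKO and at 12.4 and 25.0 TPM in fl/fl, likewise with overlap. The paralog C1rb was not analysed here, and reads of the pair may be hard to separate.

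C4b encodes complement C4, cleaved by C1s to form part of the classical C3 convertase. It was at 14.4 and 14.0 TPM in the cKO libraries and at 6.97 and 18.0 TPM in the fl/fl libraries. The cKO libraries were almost equal and lay between the fl/fl ones. Its log2 fold change of 0.34 ± 0.47 (SE, edgeR adjusted p = 0.626) became 1.21 with fl/fl replicate 2 out and -0.21 with fl/fl replicate 1 out. The RefSeq table also lists C4a, a near-identical copy known as sex-limited protein, as a transcribed pseudogene; it was not analysed here, so the counts of C4b may include its reads.

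C3 feeds every pathway of the cascade and is induced in many tissues by inflammation. It stood at 29.5 and 27.6 TPM in the cKO libraries and at 7.83 and 29.6 TPM in the fl/fl libraries, from 1118 and 986 counts in cKO and 267 and 1230 counts in fl/fl. Fl/fl replicate 1 was low and the other 3 libraries lay close together. The ratio between the fl/fl libraries, 3.95 in CPM, was wider than that of 99.9% of the 14459 genes tested, while the cKO libraries differed by a factor of 1.17. The log2 fold change was 0.65 ± 0.63 (SE, edgeR adjusted p = 0.492), with a 95% interval of the fold from 0.50 to 4.94. With fl/fl replicate 1 out it was -0.03, and with fl/fl replicate 2 out it was 1.94, at an unadjusted p of 0.00148 and an adjusted p of 0.121 (edgeR).

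Cfb encodes factor B, the catalytic subunit of the alternative C3 convertase. It was at 5.87 and 7.09 TPM in the cKO libraries and at 6.25 and 17.4 TPM in the fl/fl libraries. Here fl/fl replicate 2 alone was high and the other libraries were alike. The log2 fold change was -0.70 ± 0.52 (SE, edgeR adjusted p = 0.378), which became -1.28 with fl/fl replicate 1 out and 0.24 with fl/fl replicate 2 out.

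Serping1, which encodes C1 inhibitor, had the highest mean TPM of the 9 genes in both groups. It stood at 61.3 and 78.4 TPM in the cKO libraries and at 28.1 and 76.5 TPM in the fl/fl libraries. Fl/fl replicate 1 was again the low library, and the other fl/fl library lay between the cKO ones. Its log2 fold change was 0.59 ± 0.51 (SE, edgeR adjusted p = 0.436), and it was 0.03 with fl/fl replicate 1 out and 1.52 with fl/fl replicate 2 out.

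Cd55 differed in pattern from the rest. It was at 31.5 and 55.2 TPM in the cKO libraries and at 37.6 and 23.3 TPM in the fl/fl libraries, so cKO replicate 2 was the highest library and fl/fl replicate 2 the lowest. In CPM the values were 77.2 and 140.3 in cKO and 74.5 and 51.3 in fl/fl, which do not overlap, by a margin between cKO replicate 1 and fl/fl replicate 1 smaller than the spread within either group. The log2 fold change was 0.79 ± 0.36 (SE, edgeR adjusted p = 0.197), the largest of the 9, and on log2(TPM + 1) it was 0.48. With cKO replicate 2 out it was 0.29, and with cKO replicate 1 out it was 1.16. Cd55 overlaps the noncoding Cd55os and has a paralog, Cd55b, that was not analysed here, so its reads may include others.

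By mean TPM the genes ranked alike at the ends and differently in the middle. In the cKO libraries Serping1 (69.8 ± 12.1, SD, n = 2) was followed by Cd55 (43.4 ± 16.7), C1qa (29.5 ± 3.68), C3 (28.5 ± 1.32), C1qb (26.7 ± 7.35), C1qc (24.1 ± 3.16), C4b (14.2 ± 0.304), Cfb (6.48 ± 0.863) and C1ra (6.38 ± 1.66). In the fl/fl libraries the order was Serping1 (52.3 ± 34.2), C1qc (36.0 ± 17.03), C1qa (34.0 ± 16.4), C1qb (33.1 ± 15.0), Cd55 (30.5 ± 10.1), C3 (18.7 ± 15.4), C4b (12.5 ± 7.78), Cfb (11.8 ± 7.85) and C1ra (7.40 ± 4.69). In the cKO order the gaps between C1qc and C4b and between C4b and Cfb exceeded the summed SD of both neighbours, and the other neighbours did not differ by that much. In the fl/fl order no neighbours did.

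Of all 14459 genes tested 4 (Uty, Eif2s3y, Ddx3y and Mup22), or 0.0277%, passed an adjusted p of 0.05, and 0 of the 9 complement genes did (edgeR). At an unadjusted p under 0.05 the counts were 32.1% of all genes and again 0 of the 9; DESeq2 likewise called 0 of the 9, at an adjusted or an unadjusted p. Groups did not overlap in CPM for 67.7% of all genes and for 1 of the 9, Cd55. The median log2 fold change was 0.012 over the 9 and 0 over all genes, with 5 of the 9 positive and 4 negative. Their values ran from -0.70 to 0.79. Without cKO replicate 2, the library nearly lacking hair follicle transcripts, the median was -0.055 over the 9 and -0.023 over all genes, with 4 of the 9 positive. That leaves 1 cKO library, so only sizes are given.

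**Figure D2:**
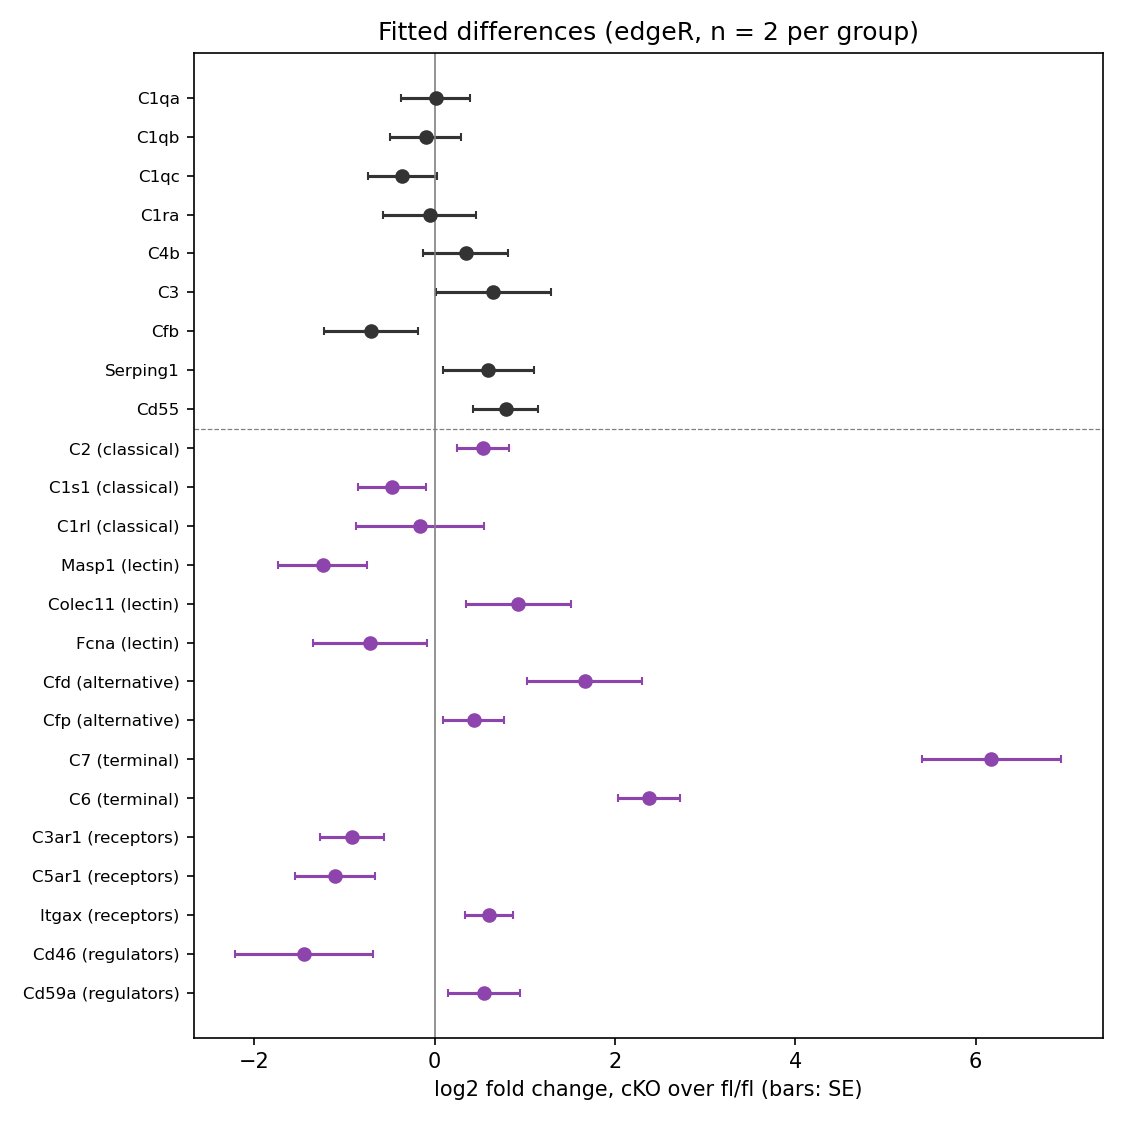
Fitted log2 fold change, cKO over fl/fl, with its SE (edgeR, n = 2 libraries per group) for the 9 complement genes (dark, above the dashed line) and for the other complement genes named here, by role (purple). The 9 lie between -0.70 and 0.79, while C7 and C6 lie at 6.18 and 2.38.

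The spread within the fl/fl group touches nearly every value above. Fl/fl replicate 2 stood at least 2-fold over fl/fl replicate 1 in CPM for 8 of the 9 genes, against 3.08% of all genes tested, and fl/fl replicate 1 was the lowest of the 4 libraries for 8 of the 9, against 35.8%. In TPM it was the lowest for 5 of the 9, so that count depends on the scale, and the share of all genes in TPM was not computed. Fl/fl replicate 2 was above fl/fl replicate 1 in CPM for the same 8 genes, against 57% of all genes. The ratio between the fl/fl libraries ranged from 2.03 for C1qb to 3.95 for C3, and for Cd55 it was 0.688. Between the cKO libraries the ratio of replicate 1 to replicate 2 ran from 0.716 for C1ra to 1.17 for C3, apart from Cd55 at 0.550. The median gene of the table differed by 0.23 log2 units between the fl/fl libraries and by 0.256 between the cKO libraries.

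**Figure D3:**
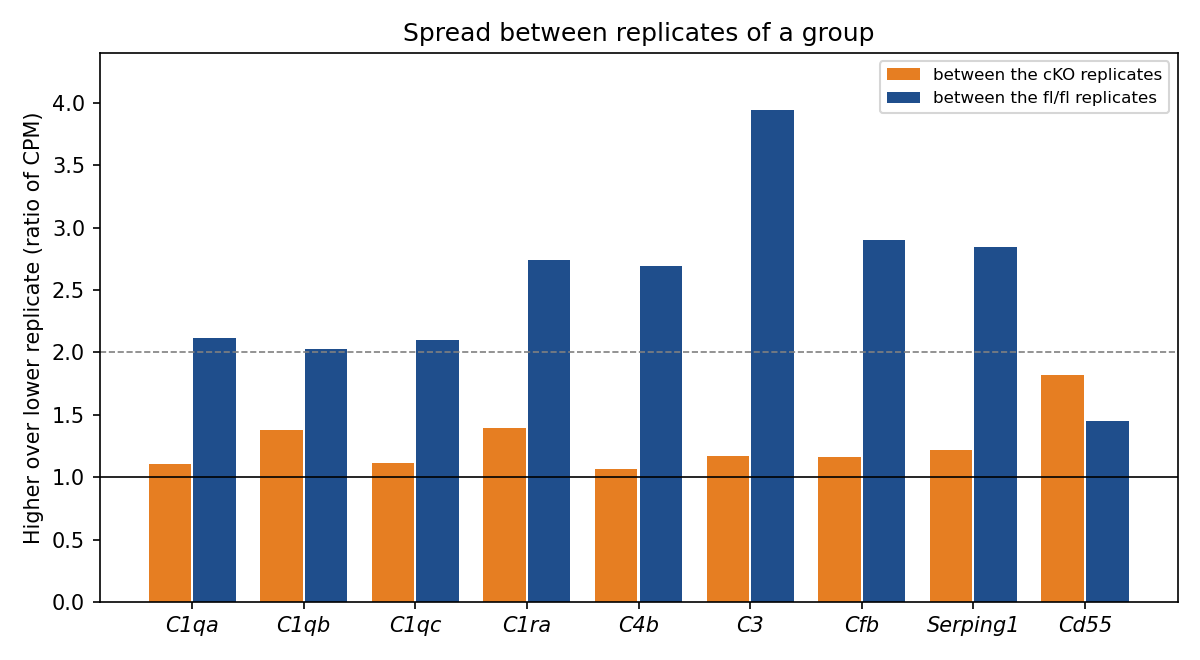
Higher over lower replicate, as a ratio of CPM, for each complement gene between the cKO libraries (orange) and between the fl/fl libraries (blue), with the solid line at equality and the dashed line at a doubling. The blue bars exceed a doubling for 8 genes and reach 3.95 for C3.

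Markers of other cell types were read against the 35.8% of all genes that were lowest in fl/fl replicate 1. All 5 adipocyte markers (Adipoq, Plin1, Lep, Cidec and Fabp4) were lowest in fl/fl replicate 1, by 2.02 to 6.85 times relative to fl/fl replicate 2, and their summed level was 892 to 983 TPM in the cKO libraries and 582 to 1172 TPM in the fl/fl libraries. Of 10 macrophage and Langerhans markers, 7 were lowest there in CPM, and the list summed to 535 to 599 TPM in cKO and 420 to 601 TPM in fl/fl. Most of that sum was Cd74, Epcam and Lyz2, and the list did not move as 1. In CPM 3 of the 10 (Cd207, Cd74 and Csf1r) had both cKO libraries above both fl/fl libraries, against 34.8% of all genes. Another 2 (Mrc1 and Epcam) had both below, against 32.9%. Fibroblast and dermis markers were lowest in fl/fl replicate 1 in CPM for 4 of 8 and summed to 1150 to 2014 TPM in cKO and 1057 to 1318 TPM in fl/fl. That list did not move as 1 either. In CPM 2 of the 8 (Col1a1 and Col1a2) had both cKO libraries above both fl/fl libraries, and 2 (Pdgfra and Fbln1) had both below. The endothelial and mast cell lists each had 2 of 5 markers lowest in fl/fl replicate 1 in CPM, near the share of all genes. By summed TPM both lists were lowest in cKO replicate 1. Between the fl/fl libraries they differed. Fl/fl replicate 2 stood at least 2-fold over fl/fl replicate 1 in CPM for 3 of 5 mast cell markers and 0 of 5 endothelial markers, against 3.08% of all genes. The endothelial sum was 26.4 and 30.9 TPM in cKO and 29.1 and 36.9 TPM in fl/fl, and the mast cell sum was 27.5 and 58.0 TPM in cKO and 41.8 and 78.6 TPM in fl/fl. None of these 5 lists had a marker at 0 in any library.

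Most skeletal muscle markers and the globins were highest in another library, cKO replicate 2. Muscle markers summed to 44.7 and 1194 TPM in the cKO libraries and to 92.5 and 120.5 TPM in the fl/fl libraries, and globins to 202 and 1189 TPM in cKO and to 274 and 308 TPM in fl/fl. Of the 9 complement genes, Cd55 and Serping1 had their highest CPM in that library. The muscle sum was carried by Acta1, Ckm, Tnnt3 and Mylpf; Myh4, a fast myosin, had 6.26 and 7.85 CPM in cKO and 14.8 and 13.9 CPM in fl/fl, lower in both cKO libraries (log2 -1.02 ± 0.23, SE, edgeR unadjusted p = 0.00722, adjusted p = 0.0827).

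Of the liver markers Apoa1, Ttr and Serpina1a were too low to test, with Ttr at 0 in 2 libraries. Alb, the serum albumin gene, had 72 and 40 counts in the cKO libraries and 16 in each fl/fl library, without overlap (log2 1.89 ± 0.45, SE, edgeR unadjusted p = 0.00920, adjusted p = 0.0887). T cell markers summed to 132 and 155 TPM in cKO and to 80.1 and 103 TPM in fl/fl (5 of 6 measured), most of it Thy1, which T cells share with other skin cells. Cd3e, Cd3g, Cd3d and Cd247, signalling subunits of the T cell receptor, were 2.91 to 3.69 times higher by the fit and did not overlap between the groups in CPM, at edgeR adjusted p from 0.0656 to 0.0789, which missed the threshold. Of all genes tested, 34.8% had both cKO libraries above both fl/fl libraries in CPM. An edgeR adjusted p under 0.1, in either direction, was reached by 15.2% of them. Neutrophil markers summed to 1857 and 8915 TPM in cKO and to 3855 and 6225 TPM in fl/fl, nearly all S100a8 and S100a9, which keratinocytes can also make. Csf3r, a neutrophil receptor, had 0.952 and 0.726 CPM in cKO and 1.49 and 6.05 CPM in fl/fl (log2 -2.17 ± 0.77, SE, edgeR unadjusted p = 0.0390, adjusted p = 0.141). Cxcr2, another receptor of that list with more counts, had 20.1 and 26.1 CPM in cKO and 24.6 and 26.2 CPM in fl/fl, with overlap (log2 -0.14 ± 0.20, SE, edgeR unadjusted p = 0.521, adjusted p = 0.641). The list thus gave no common direction, and Ly6g had at most 1 count per library. The part of any of these cells in the complement values was not tested.

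**Figure D4:**
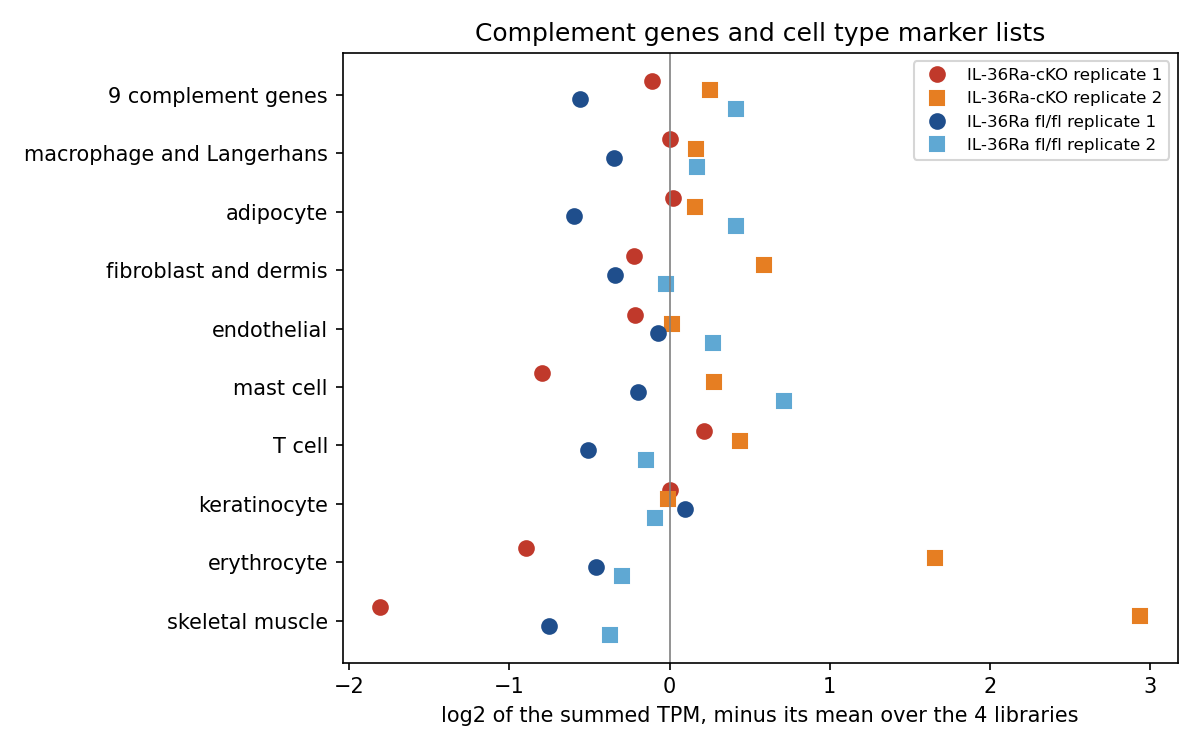
Summed TPM of the 9 complement genes and of cell type marker lists in each library, as log2 minus the mean over the 4 libraries. Fl/fl replicate 1 is lowest for the complement genes (160 TPM, against 218 and 280 in cKO and 313 in fl/fl replicate 2) and for the adipocyte, macrophage, fibroblast and T cell lists, and cKO replicate 2 is highest for muscle and red cell genes.

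Ratios between the genes within a library are free of library scaling. Of the 36 pairs among the 9 genes, 22 had TPM ratios that did not overlap between the groups, and 0 of the 22 involved Cd55. That is 61.1% of the pairs, beside 64.9% of all gene pairs, so separation of a ratio is not particular to these genes and the ratios below are given as descriptions. These were examined after the levels were seen, and with 2 libraries per group an exact two-sided permutation test cannot go below p = 0.333. The ratio of C3 to Cfb was 5.02 and 3.89 in the cKO libraries and 1.25 and 1.71 in the fl/fl libraries, the pair that forms the alternative convertase. Serping1 exceeded C1ra 11.8 and 10.4 times in cKO and 6.89 and 7.14 times in fl/fl, and it exceeded C1s1 5.62 and 5.91 times in cKO and 2.26 and 3.07 times in fl/fl. C3 to C4b gave 2.04 and 1.97 in cKO and 1.12 and 1.65 in fl/fl.

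The profiles of the 9 genes were compared by their distance, the root mean square difference of log2 CPM over the 4 libraries after centring each gene on its mean. C1qa and C1qb were the closest at 0.132, and C4b and Serping1 lay 0.188 apart. Cd55 was at least 0.687 from every other gene. Among 10100 further genes with a mean of at least 10 CPM, those nearest to C3 were Trf (transferrin, distance 0.103), Adipoq (adiponectin, 0.206), Rarres2 (chemerin, 0.214), Sod3 (extracellular superoxide dismutase, 0.248) and Penk (proenkephalin, 0.29). Trf had 54.4 and 53.3 TPM in the cKO libraries and 17.6 and 55.6 TPM in the fl/fl libraries, with the same single low library as C3. The nearest to the mean C1q profile were Col5a1 and Col5a3, both type V collagen chains, at 0.057 and 0.084, with Ephx2 (0.06), Antxr2 (0.085) and Adgra2 (0.093). With 4 libraries many genes share a profile, and these distances are a description.

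The other complement genes, 45 listed by role, had fold changes over a wider range (log2 -1.45 to 6.18), and 0 passed an adjusted p of 0.05 (edgeR; 4 with DESeq2). Of the 45, 8 were not among the genes analysed here, 14 were too low to test and 23 were tested. Among these 23, 2 were higher and 1 lower in the cKO libraries at an unadjusted p under 0.05, which 16.5% and 15.6% of all genes were. The median log2 fold change was -0.086, beside 0 over all genes. In CPM 7 of the 23 had both cKO libraries above and 5 both below, against 34.8% and 32.9% of all genes.

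The terminal components C7 and C6 gave the widest contrasts. C7, which anchors the membrane attack complex in the lipid bilayer, had 286 and 532 counts in the cKO libraries and 1 and 11 counts in the fl/fl libraries, or 8.21 and 15.2 TPM in cKO and 0.04 and 0.33 TPM in fl/fl. Its log2 fold change was 6.18 ± 0.77 (SE), with an edgeR adjusted p of 0.0669 that missed the threshold, and with so few fl/fl counts its size is loose: 5.39 with fl/fl replicate 1 out and 8.47 with fl/fl replicate 2 out. The log2 fold change of C7 was 6.53 with cKO replicate 1 out and 5.69 with cKO replicate 2 out. C6, which binds C5b before C7 joins, had 67 and 74 counts in cKO and 11 and 18 counts in fl/fl, with a log2 fold change of 2.38 ± 0.35 (SE, edgeR adjusted p = 0.0678). For both genes every cKO value lay above every fl/fl value. DESeq2 called both, at adjusted p = 1.24e-15 and 9.60e-04, among 2574 genes that it called in all. The pair lie near each other on chromosome 15, with Mroh2b between them. The remaining terminal components were read at 13 counts or fewer per library, with Hc, the gene of C5, at 0 to 2.

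Among the regulators, Cd46, a membrane cofactor for the cleavage of C3b, was at 2 and 8 counts in cKO and 18 and 11 counts in fl/fl, too few to give a precise fold. Cd59a, which blocks the membrane attack complex, was at 5.39 and 7.60 TPM in cKO and 3.59 and 6.49 TPM in fl/fl. Their log2 fold changes were -1.45 ± 0.76 and 0.55 ± 0.40 (SE, edgeR adjusted p = 0.244 and 0.366).

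Cfd encodes factor D, also called adipsin, the protease that cleaves factor B and a product of fat cells. It was at 624 and 551 TPM in the cKO libraries and at 95.7 and 342 TPM in the fl/fl libraries, far above any of the 9 genes. The groups did not overlap, but the fl/fl libraries differed 3.72-fold in CPM and fl/fl replicate 1 was low, as it was for adipocyte markers and C3. The log2 fold change was 1.66 ± 0.64 (SE, edgeR adjusted p = 0.157, DESeq2 adjusted p = 0.0279), and it was 1.00 with fl/fl replicate 1 out and 2.88 with fl/fl replicate 2 out. Cfp, the stabiliser properdin, was at 13.8 and 13.5 TPM in cKO and at 8.34 and 14.8 TPM in fl/fl (0.43 ± 0.34, SE, edgeR adjusted p = 0.403).

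Among receptors for complement fragments, C3ar1 and C5ar1, which bind C3a and C5a on myeloid cells, had all cKO values below all fl/fl values. C3ar1 was at 0.65 and 0.85 TPM in cKO and at 1.29 and 1.87 TPM in fl/fl, with a log2 fold change of -0.91 ± 0.36, and C5ar1 was at 0.57 and 0.47 TPM in cKO and at 0.97 and 1.56 TPM in fl/fl, with -1.10 ± 0.44 (SE, edgeR adjusted p = 0.159 and 0.164). Itgax, a chain of complement receptor 4 on dendritic cells, gave 0.60 ± 0.26 (edgeR adjusted p = 0.184). In the classical list C2 gave 0.54 ± 0.29, C1s1 -0.47 ± 0.38 and C1rl -0.16 ± 0.71 (edgeR adjusted p = 0.246, 0.412 and 0.885). In the lectin list Masp1, a protease of the lectin pathway, gave -1.24 ± 0.49 (edgeR adjusted p = 0.164). It was at 1.33 and 1.01 TPM in cKO and 1.91 and 4.21 TPM in fl/fl, and Masp2 was too low to test. Colec11 gave 0.93 ± 0.59 and Fcna -0.72 ± 0.63 (edgeR adjusted p = 0.31 and 0.451).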

How the data were processed

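RNA of mouse tissue labelled as epidermal keratinocytes was profiled in 4 libraries, 2 per genotype. Markers of fibroblasts, adipocytes and skeletal muscle were read in every library as well, so the tissue was not keratinocytes alone. Per the labels' protocols, polyadenylated RNA was sequenced as DNA nanoballs, and whether the libraries keep strand is not stated. The build GRCm39 and the tools RSEM 1.3.1, Bowtie2 2.3.4.3 and DESeq2 1.4.5 are named, per the submitters' processing notes, without their roles. The authors deposited estimated counts (not normalized; 11.05% to 13.02% of values per library were not whole), TPM and FPKM per gene, and a normalized count signal deposited alongside. FPKM and that signal were not used here.

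Estimated counts were rounded and put through the quasi-likelihood test of edgeR 4.0.16 under R 4.3.3, scaled by TMM and with group as the only term, after edgeR's default expression filter (14459 of 17958 genes kept), with Benjamini-Hochberg adjustment over all genes tested at 0.05. That left 2 residual degrees of freedom. On simulated data the fit called 6 of 100 genes changed 2-fold and 74 of 100 changed 4-fold, so most 2-fold changes were missed there. CPM is TMM-scaled, and levels between genes are given in TPM. The alternatives included DESeq2 1.42.0, limma 3.58.1 (voom), log2(TPM + 1), other scalings and filters, a replicate block and each library left out. The genes and lists were chosen with earlier results of these data known. Other complement genes were named by a rule: those past the threshold, or else up to 3 per role with the smallest p; 1 gene so chosen is counted in its list but not reported here. Intervals are 95% and cover the spread between libraries.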

Additional observations from a re-analysis of the deposited data

How the results depend on the processing

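No setting tried called any of the 9 complement genes at an adjusted p of 0.05. Several settings called almost no gene of any kind, however: 3 with median-of-ratios factors, 4 with limma-voom and 0 with the crossed pairing given below. Such settings can say little about the 9. Over all genes the 4 calls became 388 with upper-quartile factors, 2574 with DESeq2 and 2201 at an adjusted p of 0.1, and ranged from 0 to 887 when 1 library was left out, 887 being the count with cKO replicate 1 out. Calls among other complement genes, 0 with edgeR, were 3 with upper-quartile factors (C7 and C6 among them), 4 with DESeq2 (C7, C6 and Cfd among them) and 3 at an adjusted p of 0.1, and 0 to 1 with 1 library out. At an unadjusted p under 0.05 the 9 genes gave 1 (Cd55) with upper-quartile factors and 0 to 3 with 1 library out, and all genes gave 2219 to 3855. The 3 were C3, C4b and Serping1, all higher in cKO with fl/fl replicate 2 out; with fl/fl replicate 1 out they were C1qc and Cfb, both lower.

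Some log2 fold changes turned sign. C1qa was -0.017 with median-of-ratios factors, -0.016 with DESeq2, -0.121 on log2(TPM + 1) and -0.123 on log2(TPM + 0.1), scales on which the median of all genes moved by -0.157 and -0.175. C1ra was 0.07 and C1rl 0.096 with limma-voom. With 1 library out the values ran from -0.432 to 0.634 for C1qa, -0.524 to 0.48 for C1qb, -0.799 to 0.256 for C1qc, -0.608 to 0.833 for C1ra, -0.205 to 1.208 for C4b, -0.025 to 1.938 for C3, -1.278 to 0.242 for Cfb, -0.911 to 0.142 for C1s1, -0.796 to 1.078 for C1rl and -1.255 to 0.181 for Fcna. The cause was not tested. Of 126 alternative values for the 9 genes, 109 kept direction and side of the threshold and 17 turned sign.

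The groups share replicate numbers 1 and 2, but over the genes tested, deviations of same-numbered libraries from their group means correlated at r = -0.13. With 2 libraries per group the deviations within a group mirror each other. The 2 pairs therefore give the same r by construction, and it is a single value. With the replicate block 4 genes and 0 of the 9 were called, C1ra was 0.094 and C1rl 0.013. A crossed pairing, chosen after seeing the data, called 0 genes (5409 at an unadjusted p under 0.05) and 0 of the 9, with 1 of them, Cd55, at an unadjusted p under 0.05; C1ra was 0.09 and C1rl 0.005.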
